A study of Mus musculus with 2 samples.

Results

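Of 10 genes of the Notch pathway in primary mouse myoblasts, Jag1 alone differed by more than 2-fold between the Mll1 cKO and the control array, and the receptors and the transcriptional targets measured beside it differed by less than 1.5-fold. The 10 genes are the ligands Jag1, Jag2 and Dll1, the receptors Notch1, Notch2 and Notch3, the targets Hes1, Hey1 and Heyl, and Hes6, which encodes a relative of HES1 that opposes it. They were taken by name, as the genes whose symbol is the only one given for a probe set of the array, and each had 1 probe set, so that all 10 were measured among 19938 named genes in all. They were selected on known roles after the differences between these arrays had been seen, among them that of Jag1, so the values below describe them and test nothing.

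Notch signalling passes between touching cells. A ligand of the Jagged or Delta family on one cell binds a Notch receptor on its neighbour, the receptor is cleaved, and its intracellular domain enters the nucleus, where with RBPJ and Mastermind proteins it switches on genes of the HES and HEY families. These encode basic helix-loop-helix repressors. In satellite cells, the stem cells of skeletal muscle, the pathway is known for keeping cells quiescent and for holding back MYOD and differentiation.

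The myoblasts, cultured progeny of satellite cells, came from hind limb muscle of mice 5 to 6 weeks old and carried the genotype Rosa-CreER / MLL1 fl/fl, in which both Mll1 alleles are floxed and a Cre recombinase made from the ubiquitous Rosa26 locus becomes active when 4-hydroxytamoxifen (4-OHT) is given. Both cultures came from the same myoblast line and were kept in Ham's F10 that held 5 ng/ml FGF and serum (FBS) at 20%. The Mll1 cKO culture (labelled MLL1 KO) received 500 nM 4-OHT in 0.01% EtOH for 7 days, and the control culture received 0.01% EtOH alone for as long. Both were then grown without either agent for 3 days by the labels, or 2 days by the study's methods. RNA of each culture was hybridised to 1 Affymetrix MoGene 1.0 ST array, so no difference given here can be set against a spread between replicates or tested, and the effect of the drug itself cannot be told apart from that of the deletion. Since each array reads a whole culture, a change in a few cells and a smaller one in all cells cannot be told apart either.

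Kmt2a, the gene of MLL1, had log2 signals of 9.44 in control and 9.66 in Mll1 cKO myoblasts, but its probe set is not limited to the deleted exons and does not check the deletion. The study checked the deletion by RT-qPCR, and the loss of the protein by western blot and immunostaining. It also plotted array log2 fold changes along the Mll1 transcript, with exons of the floxed region marked. The cells carried the markers of myoblasts. All 10 myoblast markers examined had a log2 signal over 7 in the higher array, the study's limit for its list of lower genes, and Myod1 had 12.15 and 12.27. Only Myf5, from 9.51 to 6.14, differed by more than 2-fold among them.

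Jag1 (probe set 10488060), which encodes the Notch ligand JAGGED1, had log2 signals of 6.59 in control and 7.84 in Mll1 cKO myoblasts. This made it 2.38-fold higher in the Mll1 cKO culture, a log2 difference of 1.25. It moved from below the signal of 7 to above it, but not past the stricter limit the study set for higher genes. Among all named genes 105 had a higher difference, or 0.527%, and among the genes of similar mean signal (1 of 10 groups of equal size) 1.00% did. For comparison, the share of all named genes beyond 2-fold was 1.16% on the higher side and 0.11% on the lower. The log2 difference of Jag1 was 1.31 with all differences centred on their median, 1.20 with the trend on signal removed and 1.14 after a further quantile normalization, so it was over 2-fold under each of these scalings.

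The other ligands did not follow Jag1. Jag2, which encodes the related ligand JAGGED2, had log2 signals of 9.15 in control and 9.12 in Mll1 cKO myoblasts, a difference of -0.030 that turned to 0.029 after centring. Dll1, which encodes the ligand Delta-like 1, had 8.15 and 8.43 and was 1.22-fold higher, and 15.2% of all named genes and 24.0% of those of similar mean signal had a higher difference. Of the 3 ligands, the value of Jag2 was thus nearly the same in both arrays, and that of Dll1 lay in the same direction as that of Jag1 with a much smaller size.

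The receptors were close to equal in both arrays, apart from Notch3. Notch1 had log2 signals of 9.01 in control and 9.04 in Mll1 cKO myoblasts, a difference of 0.024 that turned to -0.0058 with the trend removed and to -0.035 after quantile normalization. Notch2 had 9.63 and 9.52 and was 1.08-fold lower. NOTCH1 and NOTCH2 are receptors that satellite cells use. Notch3, whose protein is also found in pericytes and smooth muscle cells, had 8.10 and 8.47 and was 1.29-fold higher, with 10.8% of all named genes and 16.7% of those of similar mean signal at a higher difference. Its direction was the same under all 3 scalings, with log2 differences between 0.30 and 0.43. None of the 3 receptors differed by more than 1.5-fold.

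**Figure D1:**
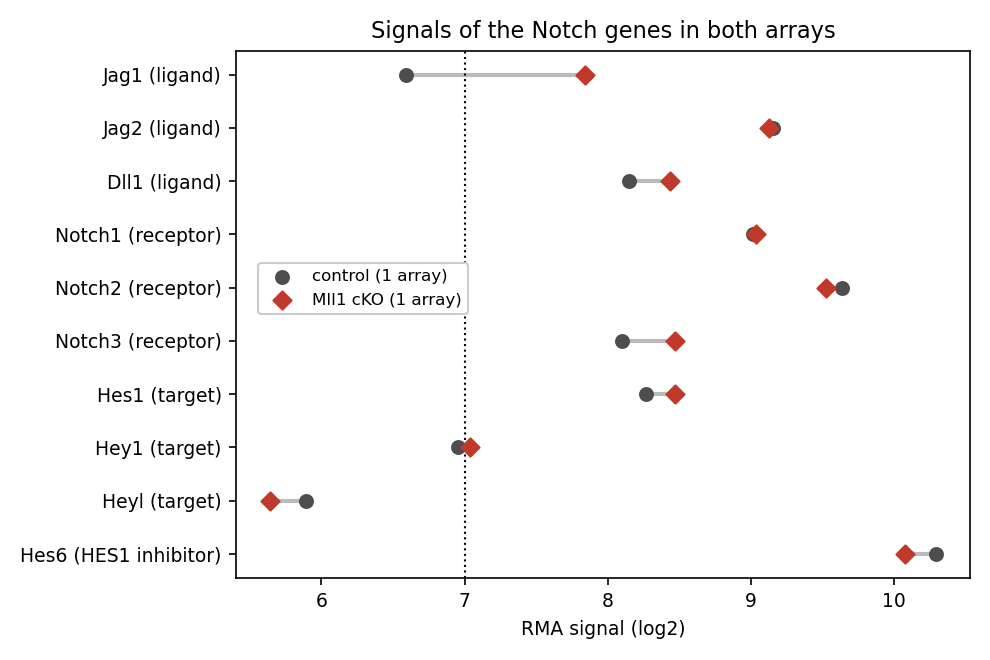
RMA signal (log2, horizontal axis) of the 10 Notch genes in the control array (grey circles) and in the Mll1 cKO array (red diamonds), with their role in brackets and a dotted line at a signal of 7. Jag1 moved from 6.59 to 7.84, whereas for each of the other 9 genes both signals lay close together, with the widest gap, 0.37, at Notch3.

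The targets, which report on receptor activity in many tissues, did not show a shared difference of this size. Hes1, which encodes the best known HES repressor, had log2 signals of 8.26 in control and 8.47 in Mll1 cKO myoblasts and was 1.15-fold higher, with 20.7% of all named genes and 33.0% of those of similar mean signal at a higher difference. Hey1 had 6.95 and 7.04 and was 1.06-fold higher, although its difference of 0.082 turned to -0.030 after quantile normalization. Heyl, which like Hey1 encodes a HEY repressor of satellite cells, had the weaker signals of 5.89 and 5.64 and was 1.19-fold lower. Genes of similar mean signal to Heyl had a median log2 difference of -0.13, and the difference of Heyl went from -0.25 to -0.13 when the trend on signal was removed. The 3 targets therefore lay on both sides of 0, and the lowest of them was the only Notch gene whose signal was below 7 in both arrays.

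Hes6 encodes a HES family protein that binds HES1 and lifts its repression, and it is known for promoting the differentiation of muscle and nerve cells. It had log2 signals of 10.30 in control and 10.08 in Mll1 cKO myoblasts, and was 1.16-fold lower. A lower difference was found for 27.0% of all named genes and 13.8% of those of similar mean signal, and its direction was the same under all 3 scalings. Its direction was thus opposite to that of Hes1, with both differences under 1.5-fold.

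Over all 10 Notch genes, 6 were higher and 4 were lower in the Mll1 cKO array, with a median log2 difference of 0.053, against -0.049 for all named genes. The split became 7 and 3 after centring, 5 and 5 with the trend removed and 4 and 6 after quantile normalization. All of them but Heyl had a signal over 7 in at least 1 array, and the median over the 8633 named genes with such a signal was 0.064. At a limit of 1.5-fold, Jag1 was again the only one that passed, and the shares of all named genes were 4.86% on the higher side and 2.01% on the lower. None of the 10 passed 3-fold, against 0.186% of all named genes on the higher side and 0.0251% on the lower. Because the genes were chosen with these differences known, their counts are not read against these shares.

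**Figure D2:**
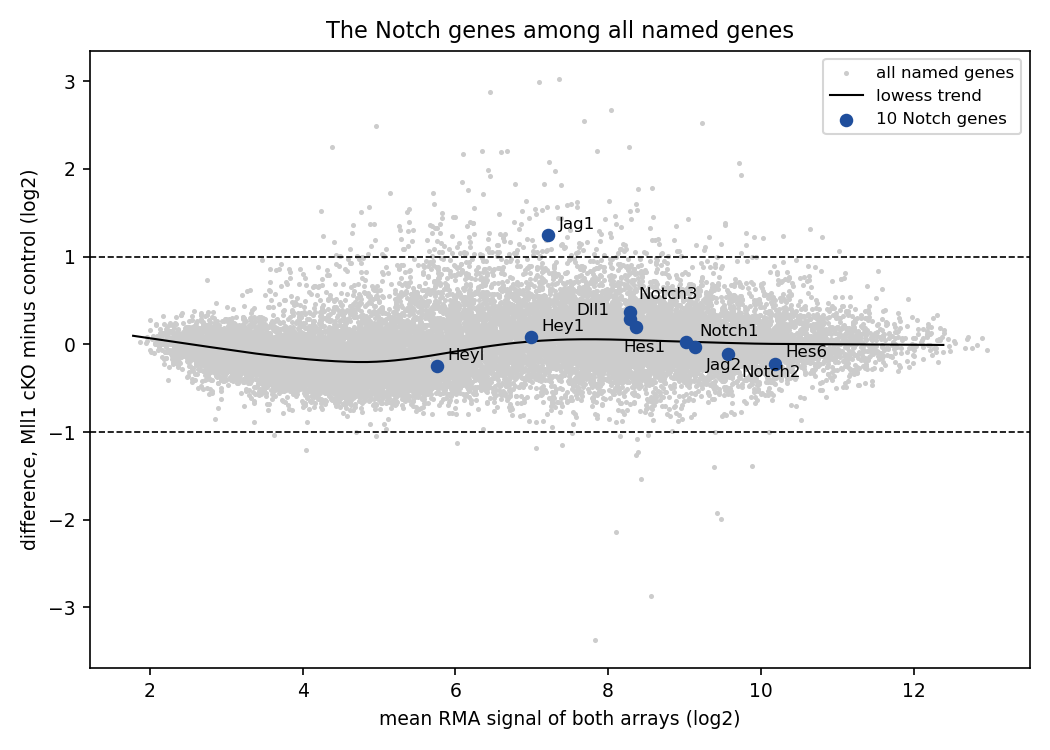
Difference between the arrays (Mll1 cKO minus control, log2, vertical axis) against the mean RMA signal of both arrays (log2, horizontal axis) for the 19938 named genes (grey) and the 10 Notch genes (blue), with the lowess trend (black curve) and 2-fold limits (dashed lines). Jag1 lies above the upper limit at 1.25, and the other 9 genes lie between -0.25 and 0.37, within the cloud of all genes.

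The sequences before the transcription start are shown for the 3 Notch genes that hold the E-box CAGCTG there, a site that MYOD and other basic helix-loop-helix factors can bind, since Jag1, the only gene over 2-fold, is among them. Of the 10 genes, 7 had promoter sequences in the RefSeq table of GRCm38.p6, as 9 windows of 300 bases (250 before and 50 after a start), and CAGCTG, which reads the same on both strands, was found in 4 of these windows, those of Jag1, Dll1 and Hes6. It was found in 16.3% of all 32851 windows. Below are the 250 bases before the start farthest upstream, 5′ to 3′, with CAGCTG in capitals. They lie on the minus strand at chr2:137116521-137116770 for Jag1, chr17:15376933-15377182 for Dll1 and chr1:91414039-91414288 for Hes6, and the E-box begins 82, 132 and 171 bases before the start.
Jag1: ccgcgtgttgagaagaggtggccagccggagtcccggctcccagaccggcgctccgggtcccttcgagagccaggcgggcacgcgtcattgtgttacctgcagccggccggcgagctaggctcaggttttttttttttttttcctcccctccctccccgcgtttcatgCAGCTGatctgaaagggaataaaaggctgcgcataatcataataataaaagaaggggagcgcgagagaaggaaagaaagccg
Dll1: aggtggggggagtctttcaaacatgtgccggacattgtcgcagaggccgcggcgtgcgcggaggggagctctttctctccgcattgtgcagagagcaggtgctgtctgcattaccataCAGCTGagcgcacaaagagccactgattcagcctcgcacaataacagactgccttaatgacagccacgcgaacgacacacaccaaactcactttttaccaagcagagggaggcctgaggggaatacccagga
Hes6: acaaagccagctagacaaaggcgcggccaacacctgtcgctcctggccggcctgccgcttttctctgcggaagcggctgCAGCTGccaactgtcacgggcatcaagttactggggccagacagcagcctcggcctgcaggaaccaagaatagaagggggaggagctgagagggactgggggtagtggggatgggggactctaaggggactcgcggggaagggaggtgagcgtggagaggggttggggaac

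The 3 genes with this E-box differed between the arrays in unlike ways, with Jag1 at 2.38-fold higher, Dll1 at 1.22-fold higher and Hes6 at 1.16-fold lower. The motif GTGGGAA of RBPJ, the DNA-binding partner of the Notch intracellular domain, was found on neither strand in the 9 windows, and in 6.38% of all windows. Its shorter core TGGGAA, which is part of it, was also found in none of the 9 and in 25.6% of all. The 3 genes without a promoter sequence were the targets Hes1, Hey1 and Heyl, so no motif was looked for in them. A match is a description of the letters and not of binding.

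The wider pathway was described by 58 further genes. Of these, 2 passed 2-fold on the higher side and none on the lower, against 1.16% and 0.11% of all named genes. In all 26 lay above 0 and 30 below it, where 41.6% of all named genes lay above and 55.6% below. The median log2 difference was -0.036. After centring or with the trend removed 30 lay above and 28 below, and after quantile normalization 24 lay above and 34 below. This list was also drawn up with results of these arrays known, among them that of Dlk1. Both genes over 2-fold stand apart from the core of the pathway. Dlk1 encodes a Delta-like protein that lacks the receptor-binding domain of the usual ligands, and it had log2 signals of 6.70 in control and 9.37 in Mll1 cKO myoblasts, 6.37-fold higher. Bhlhe40 encodes a repressor related to the HES proteins that is not a usual Notch target, and it had 5.16 and 6.43, 2.42-fold higher.

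A limit of 1.5-fold was passed by 6 of the 58 genes, all of them higher in Mll1 cKO myoblasts, and by 4.86% of all named genes on the higher side and 2.01% on the lower. Besides Dlk1 and Bhlhe40 these were Dner, which encodes another unusual ligand, at 1.62-fold with weak log2 signals of 5.25 and 5.95, Lfng, at 1.52-fold, Tle1, at 1.60-fold, and Dtx3, at 1.54-fold. Lfng encodes lunatic fringe, a glycosyltransferase that changes which ligands a Notch receptor answers to. Tle1 encodes a Groucho corepressor that HES proteins recruit, and Dtx3 encodes a ubiquitin ligase of the Deltex family. The log2 signals in the control and Mll1 cKO arrays were 7.39 and 7.99 for Lfng, 7.37 and 8.05 for Tle1, and 7.39 and 8.02 for Dtx3. After quantile normalization the log2 differences of Lfng, Tle1 and Dtx3 were 0.50, 0.57 and 0.52, which are below 1.5-fold, as were those of Lfng and Dtx3 with the trend removed, at 0.54 and 0.57.

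The machinery that carries the signal differed less. Rbpj, the nuclear partner of the receptors, had 2 probe sets with mean log2 signals of 6.83 in control and 6.93 in Mll1 cKO myoblasts. Of the 7 nuclear activators, Maml3, a Mastermind gene, had the largest difference and was 1.22-fold higher. Of the 8 genes for cleavage of the receptor, 4 were higher and 4 were lower, and the largest difference was that of Psen2, a catalytic subunit of γ-secretase, at 1.37-fold higher. Of the 4 ubiquitin ligases that act on ligands, Neurl1a had the largest difference, at 1.28-fold higher. None of these 3 groups held a gene over 1.5-fold.

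Notch4, the receptor known from endothelium, had weak log2 signals of 5.95 in control and 5.55 in Mll1 cKO myoblasts and was 1.32-fold lower. Of the 8 other HES or HEY genes and relatives, 6 lay below 0 and 2 above it, and the median log2 difference was -0.18. With the trend on signal removed 4 lay on each side and the median was -0.048, since Hey2 and Helt turned from -0.11 each to 0.063 and 0.058. Only Bhlhe41 among them had a signal over 7. The largest difference after Bhlhe40 was that of Hes5, a Notch target of the nervous system chosen here after its value was seen, with 6.90 and 6.36. The difference of Hes5, -0.54, was the same with the trend removed and -0.48 after centring. After quantile normalization it was -0.65, which is more than 1.5-fold lower. Genes with a mean signal between 4.04 and 6.15 (3 of the 10 groups) had median log2 differences from -0.23 to -0.13, and Hes2, Hes3, Hey2 and Bhlhe40 lay in this range, whereas Hes5 and Hes7 lay in the next group, whose median was 0.090. Nrarp, which encodes a feedback inhibitor that Notch induces, gave the weak signal of 5.12 (log2) in control and Mll1 cKO myoblasts alike. With the trend removed the difference of Nrarp became 0.19.

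**Figure D3:**
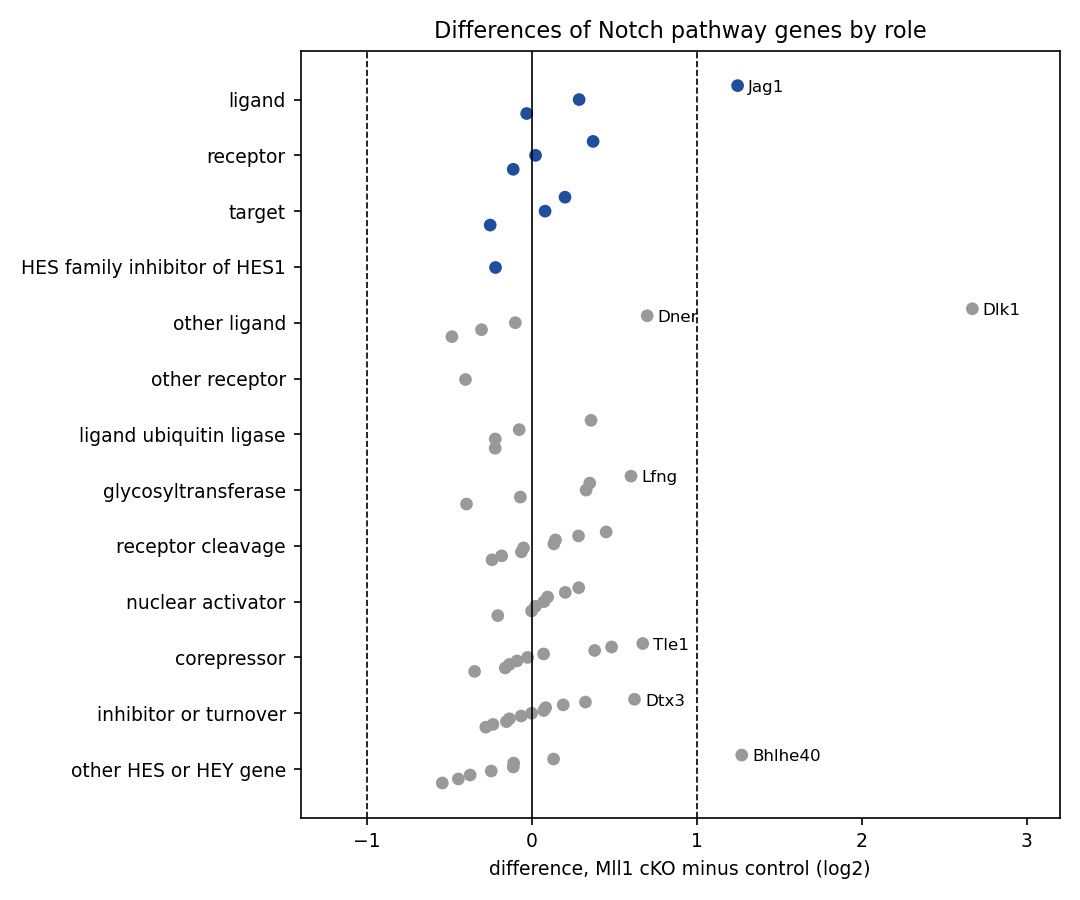
Difference between the arrays (Mll1 cKO minus control, log2, horizontal axis) of the 10 Notch genes (blue) and 58 further pathway genes (grey), each a point, by role (vertical axis), with dashed lines at 2-fold and names for genes over 1.5-fold. Jag1, Dlk1 and Bhlhe40 lie beyond 2-fold, all of them higher, and no gene lies beyond 1.5-fold on the lower side.

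A further list held 9 genes that have been named as targets of Notch in satellite cells, among them Pax7 and collagen genes of types V and VI. Of these, 8 were lower and 1, Col6a1, was higher in the Mll1 cKO array, none of them by more than 1.5-fold, with a median log2 difference of -0.27. The sign of Calcr, at -0.033, turned under all 3 scalings, which gave 7 lower and 2 higher. Of all named genes, 55.6% were lower, with a median of -0.049. Pax7, the transcription factor gene of satellite cells, had log2 signals of 10.29 and 10.02. The largest difference was that of Msc, which encodes the repressor MyoR, with the weak signals of 4.87 and 4.33.

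Markers of differentiation and of the cell cycle were read beside Jag1. Of 12 measured genes of muscle differentiation, 9 were higher, where 41.6% of all named genes were. Among these 9 were Mef2c and Mymk, the 2 that passed 2-fold, as 1.16% of all named genes did. The 3 that were lower, Mymx, Cdkn1c and Ckm, had weak signals and log2 differences of -0.12, -0.35 and -0.11. Their median log2 signal was 7.37 in control and 7.97 in Mll1 cKO myoblasts, and their summed signal on the linear scale was 4871 and 7496. Myog, the gene of myogenin, had log2 signals of 7.30 and 7.94 and was 1.56-fold higher, with 3.93% of all named genes at a higher difference. The study called myogenin mRNA unchanged, from RT-qPCR as well as the array, and took this to exclude early differentiation. It also reported terms for the myofibril and sarcomere among its higher genes, and read them as kept myogenic identity. Of 9 measured genes of S phase and mitosis, all 9 were lower, 2 of them by more than 1.5-fold and none by more than 2-fold. Of all named genes, 55.6% were lower, 2.01% by more than 1.5-fold and 0.11% by more than 2-fold. The summed linear signal of the 9 genes was 15314 in control and 10840 in Mll1 cKO myoblasts. Whether more differentiated cells have a part in the level of Jag1 was not tested.

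The named probe sets whose pair of signals lay nearest to that of Jag1 were those of Myl6b, Myh1 and Casq2, at distances of 0.027, 0.027 and 0.055 in the plane of both log2 signals. Myl6b encodes a myosin light chain, Myh1 a fast myosin heavy chain and Casq2 a calsequestrin. For Heyl, the member with the largest decrease, the nearest were Larp1b, A930016O22Rik and Rimkla, at 0.0018, 0.016 and 0.016. A likeness over 2 arrays says only that the values are near each other.

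Markers of other cells that express Notch genes had mostly weak signals. Of 10 endothelial markers, 1, Eng, had a signal over 7, and the summed linear signal of the list was 381 in control and 364 in Mll1 cKO myoblasts, with Cdh5 at log2 signals of 4.30 and 4.10. Of 10 markers of smooth muscle cells and pericytes, 3 had a signal over 7, namely Acta2, which myoblasts also express, Rgs5 and Mcam. Their summed linear signal was 2999 and 3092, with log2 signals of 5.18 and 4.80 for Myh11 and of 4.91 and 4.56 for Pdgfrb. Rgs5, with 6.95 and 7.74, was 1 of 4 members of that list that were higher, as Notch3 was, whereas Myh11 and Pdgfrb were lower. The summed linear signals of the fibroblast list were 626 and 500.1, those of the immune list 276 and 387, and those of the Schwann cell list 362 in both arrays. In the immune list Cd68, a lysosomal gene, stood apart from the rest with log2 signals of 6.08 and 7.47. Laptm5, with 5.91 and 6.46, was the other member that was higher, and Ptprc, the gene of the leukocyte antigen CD45, had 3.83 and 3.69. The part of such cells in the Notch values was not tested.

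**Figure D4:**
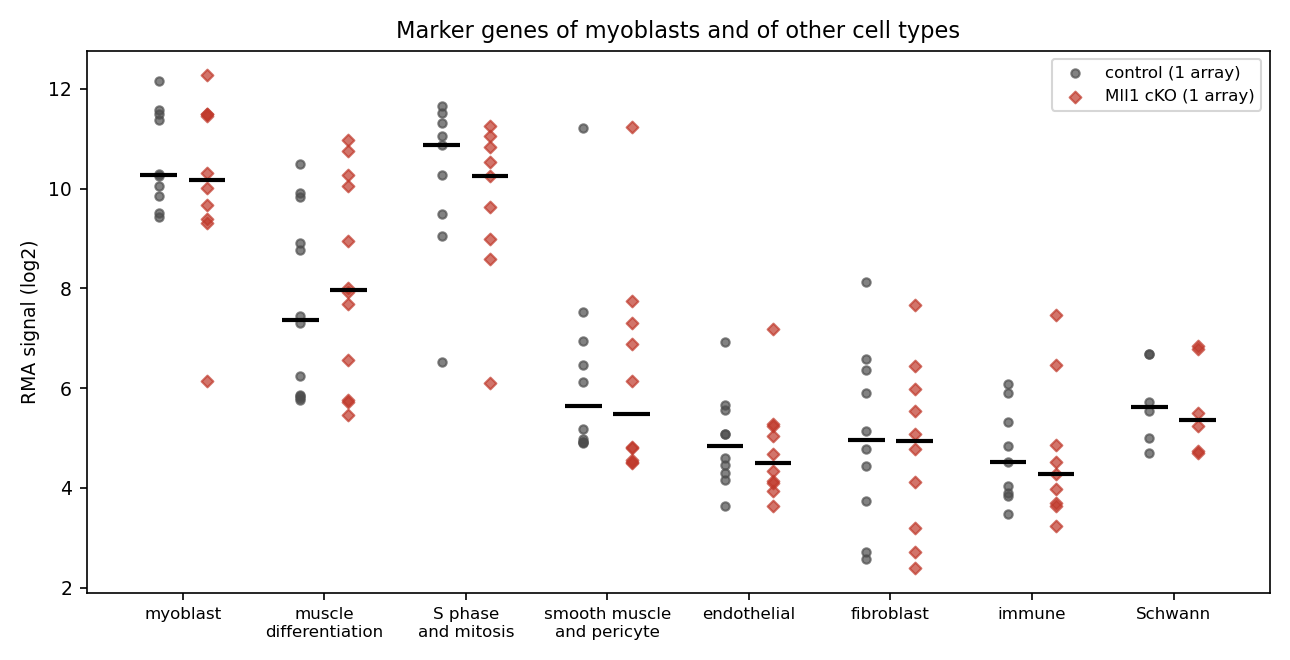
RMA signal (log2, vertical axis) of the marker genes of myoblasts, muscle differentiation, the cell cycle and 5 other cell types (horizontal axis) in the control array (grey circles) and the Mll1 cKO array (red diamonds), each point a gene and each black bar the median of its list. The median of the differentiation list was 7.37 and 7.97, and the medians of the 5 lists of other cell types lay below 6 in both arrays.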

How the data were processed

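The deposited table holds log2 signals of 35557 probe sets on 2 arrays, which the authors obtained by RMA normalization (background correction, quantile normalization and summary of the probes of a probe set); no version of the software is given in the sources that were read. Per the labels, 1 array is Control and 1 is MLL1 KO, and no replicate exists. The number of arrays limits the precision.

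Genes were named by the annotation of the platform, of which 21789 probe sets have 1 symbol and 1621 have several, and no gene was named from the latter. Symbols were checked by gene number against RefSeq (GRCm38.p6). A gene's value is the mean of its probe sets, and its difference is the log2 signal of MLL1 KO minus that of Control, with the study's limit of 2-fold. The 6613 probe sets taken as controls, the run of lowest numbers, were left out of the gene values, the centring and the lowess trend. They were kept in the further quantile normalization.

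The members and lists were chosen with earlier results of these data known. Named were the 10 members, other pathway genes over 1.5-fold or largest in their role, satellite cell targets over 1.5-fold, Kmt2a, Myf5, Pax7, Myod1 and Myog as context, and the 3 nearest probe sets to the members with the largest increase (Jag1) and decrease (Heyl); marker genes and Rbpj, Nrarp, the other HES and HEY genes, Msc, Calcr and Col6a1 were added after their values were seen. The alternatives tried were limits at 1.5-fold or 3-fold, genes whose higher signal passed 7, centring on the median, removal of a lowess trend (span 0.3), a further quantile normalization and, for genes with several probe sets, the brightest of them. The scalings and the 2-fold limit were tested on simulated probe set values, with planted changes larger than that of Jag1. The means per gene, the lists and the motif search were not tested in this way. The protein comparison was not run. Python 3.11.15, numpy 2.4.6, pandas 2.3.3, statsmodels 0.14.6 and matplotlib 3.10.9 were used.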

Additional observations from a re-analysis of the deposited data

How the results depend on the processing

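Jag1 was the only 1 of the 10 Notch genes over 2-fold under every alternative but the 3-fold limit, at which the count was 0. The median log2 difference of the 10 genes was 0.053 and turned to -0.032 after quantile normalization. For the 58 other pathway genes, the count over 2-fold was 2 and became 6 at 1.5-fold, 1 at 3-fold and 1, Dlk1, among genes with a signal over 7. Their median of -0.036 turned to 0.022 after centring, to 0.017 with the trend on signal removed and to 0.048 among genes with a signal over 7. The signs of Jag2, Notch1 and Hey1 turned under at least 1 scaling, and the cause was not tested. No paired analysis was possible because each condition has 1 array. No rule for picking results for a closer look was applied, because such a rule needs several samples in a group.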
